A study of Saccharomyces cerevisiae with 8 samples.

Results

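The genes described here make and recycle the purine and pyrimidine nucleotides of the yeast Saccharomyces cerevisiae. They were chosen by name, as 40 genes of de novo synthesis, salvage, uptake and regulation, and were found in the scanner files by their locus. All 40 were among the 6225 systematic names on the array, and each was measured by 1 probe spotted 2 times. The rule that picks them uses locus names and no measured value, though the list was drawn up with earlier results of these data known.

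The study measured RNA on 8 Agilent 2-colour oligonucleotide arrays, 1 for each of 16, 17, 19, 20, 21, 22, 23 and 24 h. The growing cells, sampled in exponential phase, were of strain S288C, the laboratory strain of the reference genome, in a batch culture on minimal medium, and their RNA was labelled with Cy5 (red). RNA of S288C cells aged 64 h, labelled with Cy3 (green), served as the common reference throughout, and no array had the dyes the other way round. The 8 arrays therefore form 1 group without a replicate at any time. A positive log2 ratio is a higher level in the growing cells, relative to the typical gene on the array. Nothing in the labels says that the times came from separate cultures, so the p-values measure only the spread between these arrays, which may be technical. A dye effect on a probe cannot be told apart from a difference between growing and 64 h cells.

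Purine synthesis builds the base on an activated ribose, phosphoribosyl pyrophosphate (PRPP), step by step to inosine monophosphate (IMP), which branches to AMP and to GMP. Pyrimidine synthesis makes the ring first, joins it to PRPP and gives UMP, from which UTP and CTP follow. Salvage enzymes return free bases and nucleosides to nucleotides, and permeases bring them in from the medium. Growing cells need nucleotides for RNA, above all ribosomal RNA, and for DNA.

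The arrays could be used for these genes with few limits of signal. Both channels were well above background on all 8 arrays for each of the 40 genes, and all 40 were among the 5650 genes tested (those whose probe cleared background in one channel or the other on 4 or more arrays). The median Cy5 signal of the gene spots ranged from 992.5 to 1674 over the arrays and the median Cy3 signal from 1386 to 2032. No member was saturated in Cy3, and 4 were saturated in Cy5 on some arrays: ADE17 and ADE3 on 6 each, FCY2 on 4 and ADE5,7 on 2, so that their ratios are too low there by an unknown amount. The 2 spots of a member differed by a median of 0.11 in log2 ratio, while the SD over the 8 arrays had a median of 0.23. Markers of the labelled states went with the labels. Of 10 ribosome-assembly and polymerase I genes that mark growth 9 were higher in the growing cells, with a median log2 ratio of 0.65. Of 9 measured markers of starved cells 9 were lower, with a median of -5.49. Among all genes tested 40.3% were higher and 42.6% lower. The marker lists were chosen with earlier results of these data known, so they are no independent check of the labels.

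The times of 2 arrays are in dispute. Scanner ratios, centred within their slide, were set against the columns of the authors' table across genes. The 20 h file had a correlation of -0.49 with the 20 h column and of 0.97 with the 24 h column, and the 24 h file one of -0.39 with the 24 h column and of 0.93 with the 20 h column. The remaining 6 files were closest to their own columns. Every result over time is therefore given in 3 ways: with the times as recorded, from the 6 undisputed arrays, and after the files of 20 h and 24 h changed places. The mean ratio over the arrays does not depend on their order. Its SE and p-value do, since the fit also holds the recorded times. Calls of the mean with the files exchanged are not given.

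Relative to the typical gene, growing cells held more mRNA than 64 h cells for most nucleotide genes. The normalization sets the typical ratio of each array near 0, so a difference in total mRNA between the 2 states is not measured. With limma, 33 of the 40 members were higher and 4 lower, and 3 failed to pass, where 40.3% of all genes tested were higher and 42.6% lower. The median of the members' mean log2 ratios was 0.50, against -0.02 for all genes tested. At least 2-fold higher were 7 members, IMD2, IMD4, FUR1, URA7, AAH1, IMD3 and ADE12, where 4.6% of all genes were, and at least 2-fold lower was 1, URA10, where 10.2% of all genes were. All 8 log2 ratios were above 0 for 24 members (31.4% of all genes) and below 0 for 4 (35.9% of all genes). All arrays carried the same 64 h RNA, so the spread between cultures of 64 h cells is not part of these tests. In bulk RNA, fewer cells that hold a transcript and less of it per cell cannot be told apart.

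The size of the excess moved with the dye normalization. The members were bright, 37 of them lying above the median intensity of the genes tested, and with median centring in place of loess, which removes no trend with intensity, their median rose to 0.92. URA2 and FCY2 then also passed, at 0.78 and 0.89, so that 35 members were higher and 4 lower. At least 2-fold higher were then 18 members, and 9 with the scanner's ratios, where 8.02% and 7.65% of all genes were. The ratios from the scanner software gave a median of 0.59, with 33 higher and 4 lower. The median of all genes tested was 0.01 with median centring and 0.05 with the scanner's ratios. The shares of all genes called higher or lower at any size are not given for these scalings. A gain of calls particular to the members can therefore not be told.

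**Figure D1:**
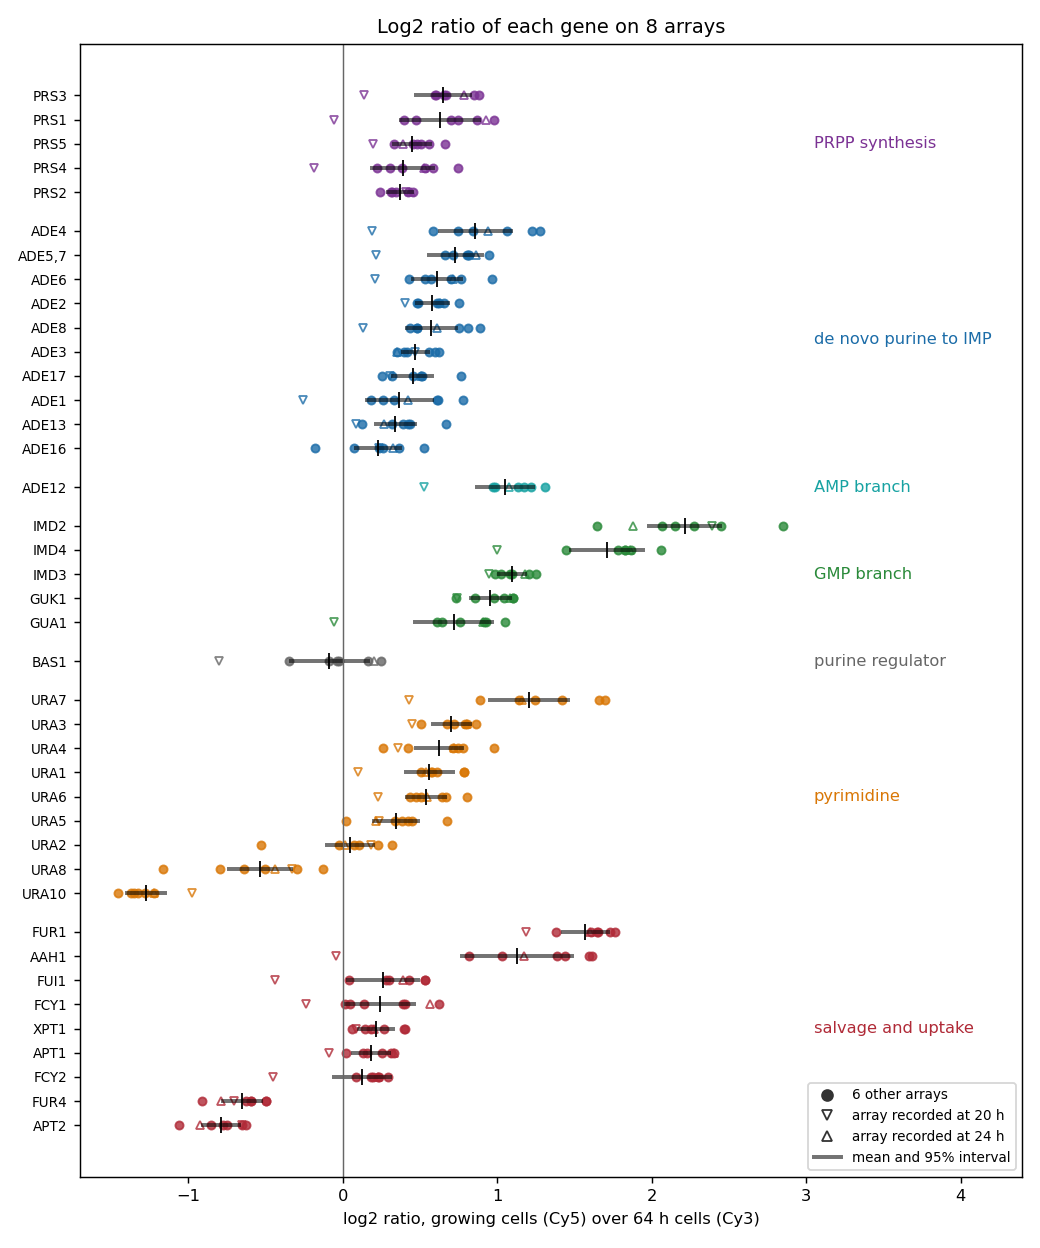
Log2 ratio of growing over 64 h cells (x axis) for the 40 genes (rows, ordered by mean within each branch). Filled circles are the 6 undisputed arrays, open triangles the arrays recorded at 20 h (down) and 24 h (up), and bars the mean with its 95% interval from limma. Most rows lie right of 0, IMD2 farthest at a mean of 2.21, while URA10, APT2, FUR4 and URA8 lie left of it.

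PRPP synthetase genes were all higher in growing cells, by small amounts under loess. The 5 genes PRS1 to PRS5 encode subunits of the enzyme that makes PRPP for purines, pyrimidines, histidine and tryptophan, and 5 of 5 passed. Their median log2 ratio was 0.45, with means from 0.37 to 0.65. With median centring the median was 0.74, and PRS1 was highest at 1.12, with PRS3 at 0.78. Under loess PRS3 had the highest mean, 0.65 ± 0.08 (SE, n = 8; limma adjusted p = 3.3e-05). Its ratios ran from 0.14 through a median of 0.66 to 0.88. PRS2 had the lowest mean, 0.37 ± 0.03 (adjusted p = 5.6e-06), with ratios from 0.24 through 0.38 to 0.46. PRS2 and PRS5 varied least among the 5, while PRS1 and PRS4 each had 1 array below 0, the one recorded at 20 h.

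The pathway to IMP was higher at every gene. Of its 10 genes 10 passed, with means from 0.23 to 0.86 and a median of 0.52. ADE4, the amidotransferase of the first committed step, was 1.81-fold higher at a mean of 0.86 ± 0.10 (adjusted p = 3.1e-05), the highest under loess, while with median centring ADE5,7 stood above it, at 1.44 against 1.29. Its ratio was 1.28 at 16 h, 1.07 at 17 h, 1.22 at 19 h, 0.19 at 20 h, 0.85 at 21 h, 0.75 at 22 h, 0.59 at 23 h and 0.94 at 24 h. All 8 values were above 0, and the array recorded at 20 h stood well below the others. ADE5,7 (YGL234W), whose protein carries out the second and the fifth step, stood at 0.73 ± 0.08, with Cy5 saturated on 2 arrays. ADE8 and ADE6, for the formylation and amidation that lie between these steps, were at 0.58 ± 0.07 and 0.61 ± 0.07. The carboxylase gene ADE2, known for the red colour of its mutants, was at 0.58 ± 0.04 and had all 8 ratios between 0.40 and 0.76.

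The later steps were higher as well. ADE1, for the synthetase that adds aspartate, was at 0.37 ± 0.09 and ADE13, the lyase that also acts in the AMP branch, at 0.34 ± 0.06. ADE16 and ADE17 encode isozymes for the last steps. ADE16 was the lowest of the 10 at 0.23 ± 0.06 (adjusted p = 0.0067), with ratios from -0.18 through 0.25 to 0.53 and the value below 0 on the 17 h array. ADE17 stood at 0.45 ± 0.06, with ratios from 0.26 through 0.48 to 0.77, but its Cy5 spots were saturated on 6 arrays and its mean was 1.23 with median centring. ADE3, which supplies the one-carbon units, was at 0.47 ± 0.04, also with Cy5 saturated on 6 arrays.

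Both branches from IMP had larger ratios than the trunk had at its median. ADE12, the synthetase that commits IMP to AMP, was 2.07-fold higher at 1.05 ± 0.08 (adjusted p = 1.4e-06), with ratios from 0.53 through 1.11 to 1.31. In the GMP branch 5 of 5 genes passed, with means from 0.72 to 2.21 and a median of 1.10. GUA1, the GMP synthetase, was lowest under loess at 0.72 ± 0.11, its ratios running from -0.06 on the array recorded at 20 h through a median of 0.83 to 1.05. GUK1, the guanylate kinase that makes GDP, was at 0.96 ± 0.06. With median centring GUA1 stood at 1.41 and GUK1, then the lowest of the branch, at 1.24. The difference between branches was not tested.

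IMP dehydrogenase, the first and rate-limiting enzyme of GMP synthesis, is encoded by IMD2, IMD3 and IMD4, and IMD2 had the largest ratio of all 40 members. IMD2, which is induced when guanine nucleotides are short, was 4.64-fold higher at 2.21 ± 0.10 (95% interval 1.98 to 2.44; adjusted p = 5.1e-08). Its ratio was 1.65 at 16 h, 2.07 at 17 h, 2.15 at 19 h, 2.39 at 20 h, 2.28 at 21 h, 2.45 at 22 h, 2.85 at 23 h and 1.88 at 24 h. The lowest value was on the first array and the highest on that of 23 h. Its Cy5 signal ran from 1022 through a median of 2111 to 3833 and its Cy3 signal only from 528.5 to 694.5.

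IMD4 was 3.27-fold higher at 1.71 ± 0.10, with ratios from 1.00 through 1.83 to 2.06, the lowest again on the array recorded at 20 h. IMD3 had the least spread of the 3, from 0.95 through 1.09 to 1.25, and a mean of 1.10 ± 0.04. The 3 genes are close in sequence, the scanner files hold no probe sequences, and signal shared between their probes was not tested.

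Pyrimidine genes were split. Of 9 genes 6 were higher, 2 were lower and URA2 did not pass, and the median was 0.54. The higher ones included URA7, one of a pair of CTP synthase genes, at 1.21 ± 0.11 and 2.31-fold (adjusted p = 5.8e-06). Ratios of URA7 ran from 0.43 on the array recorded at 20 h through 1.20 to 1.70. URA3, the decarboxylase that yields UMP, stood at 0.70 ± 0.05, URA4, the dihydroorotase, at 0.62 ± 0.07, URA1, the dihydroorotate dehydrogenase, at 0.56 ± 0.07, and URA6, the kinase acting on UMP, at 0.54 ± 0.05. URA5, the major orotate phosphoribosyltransferase, was at 0.34 ± 0.06, from 0.02 through 0.36 to 0.67.

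The gene of the first enzyme of the pyrimidine pathway, URA2, and the isozyme genes URA10 and URA8 did not follow under loess. URA2, the large protein of the first steps that UTP inhibits, was at 0.05 ± 0.07 (adjusted p = 0.51), with ratios from -0.53 at 16 h through 0.09 to 0.32 at 23 h. Without the 16 h array it passed, at 0.13 (adjusted p = 0.036), and with median centring it passed at 0.78 (limma adjusted p = 2.1e-06). URA10, the minor orotate phosphoribosyltransferase, was 2.42-fold lower in growing cells at -1.27 ± 0.05 (adjusted p = 3.1e-08). Its 8 ratios lay between -1.46 and -0.98, with a median of -1.30, and each lay below 0, while those of URA5 were above it. URA8, the other CTP synthase gene, was lower at -0.54 ± 0.09, from -1.16 at 17 h through -0.47 to -0.13 at 23 h.

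Salvage and uptake genes were split too. Of 9 genes 6 were higher, 2 lower and FCY2 did not pass, with a median of 0.22. FUR1, the uracil phosphoribosyltransferase that makes UMP from uracil, was 2.97-fold higher at 1.57 ± 0.06 (adjusted p = 2.4e-08). All its ratios lay between 1.19 and 1.76, with a median of 1.63. AAH1, the adenine deaminase that turns adenine into hypoxanthine, was 2.19-fold higher at 1.13 ± 0.16 (adjusted p = 0.00010). Its ratio was 1.62 at 16 h, 1.60 at 17 h, 1.44 at 19 h, -0.04 at 20 h, 1.39 at 21 h, 1.03 at 22 h, 0.82 at 23 h and 1.18 at 24 h. AAH1 thus had the widest spread of the members, and 7 of its 8 ratios were at least 0.82.

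Other salvage enzymes had smaller ratios or lay below 0. XPT1, the xanthine phosphoribosyltransferase, was at 0.22 ± 0.05 and APT1, the adenine phosphoribosyltransferase, at 0.18 ± 0.05, with ratios of APT1 from -0.09 through 0.20 to 0.34. FCY1, the cytosine deaminase, was at 0.24 ± 0.10 (adjusted p = 0.042), and kept its call in only 3 of the 8 fits that left out 1 array. APT2, the paralogue of APT1, was 1.72-fold lower at -0.79 ± 0.05 (adjusted p = 5.4e-07), with ratios from -1.06 through -0.76 to -0.63.

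The 3 permease genes went different ways. FUR4, the uracil permease, was 1.57-fold lower at -0.65 ± 0.05 (adjusted p = 2.4e-06), with ratios from -0.91 through -0.61 to -0.50. FUI1, the uridine permease, was higher at 0.26 ± 0.10 (adjusted p = 0.036), from -0.43 through 0.35 to 0.54, and kept its call in 2 of the 8 fits that left out 1 array. FCY2, which takes up adenine, guanine, hypoxanthine and cytosine, was at 0.13 ± 0.08 (adjusted p = 0.17) with Cy5 saturated on 4 arrays. Without the array recorded at 20 h, where it was -0.45, FCY2 passed at 0.21 (adjusted p = 0.00051).

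BAS1, the transcription factor that activates the purine and histidine genes together with Pho2, did not pass. Its mean was -0.09 ± 0.11 (adjusted p = 0.48), and its ratios ran from -0.80 on the array recorded at 20 h through -0.03 to 0.25. The regulator's transcript thus lay on both sides of 0 while 10 of 10 genes of the IMP pathway were higher.

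Genes that share an enzyme or transport role differed from each other in 6 of the 9 pairs compared. The test was an exact two-sided permutation of signs over the 8 arrays on the difference in log2 ratio, which with 8 arrays cannot give less than 0.0078, and p-values were adjusted over the 9 pairs. URA7 exceeded URA8 by 1.74 (SD 0.68, n = 8; exact p = 0.0078, adjusted p = 0.012), in 8 of 8 arrays. URA5 exceeded URA10 by 1.62 (SD 0.26), IMD2 exceeded IMD3 by 1.12 (SD 0.33) and APT1 exceeded APT2 by 0.97 (SD 0.29), each in 8 of 8 arrays and with the same exact p. FUR4 lay below FUI1 by a log2 difference of -0.91 (SD 0.36), and IMD3 below IMD4 by one of -0.61 (SD 0.33), in 8 of 8 arrays. With median centring the last of these was -0.24 (adjusted p = 0.12). These are differences in the ratio to 64 h cells, not in level. The share of other gene pairs that would pass this test is not given. The count can therefore not be read as particular to genes that share a role.

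The other 3 pairs did not pass. IMD2 minus IMD4 was 0.51 (95% interval -0.03 to 1.04; exact p = 0.055, adjusted p = 0.070), above 0 in 7 of 8 arrays, and it passed with the scanner's ratios at 0.73 and with a normexp offset of 0 at 0.60. ADE16 minus ADE17 was -0.22 (interval -0.44 to -0.001; exact p = 0.070, adjusted p = 0.079), with ADE17 saturated as above, and passed at -0.88 with median centring. PRS2 minus PRS4 was -0.02 (interval -0.29 to 0.25; exact p = 0.85). On the 6 undisputed arrays 6 pairs passed as well.

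**Figure D2:**
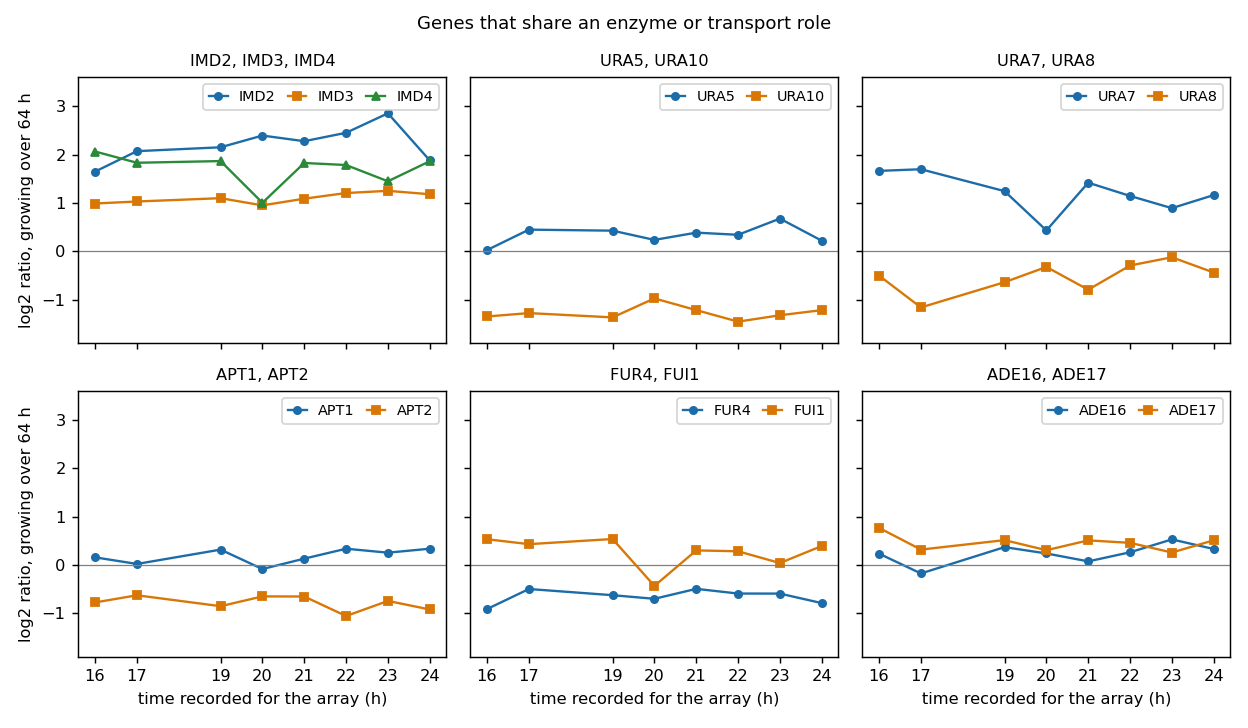
Log2 ratio of growing over 64 h cells (y axis) against the time recorded for the array (x axis, h) for 6 sets of genes that share a role. URA5 and URA10, URA7 and URA8, and APT1 and APT2 do not overlap on any array, while IMD2 and IMD4 cross between 16 and 17 h and lie 1.41 apart at 23 h.

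One array stood apart for these genes. The 20 h array, as recorded, gave the 40 members a median of 0.19, and the other 7 gave medians of 0.46 to 0.77. The median of all genes stayed between -0.05 and -0.01, where the normalization within each array places it. On that array 26 members had their lowest ratio, against 23.6% of all genes tested. The ratio there minus the mean of the other 7 arrays was -1.34 for AAH1, -0.89 for GUA1, -0.89 for URA7, -0.82 for BAS1 and -0.81 for IMD4. Not all members were low there: the same difference was 0.34 for URA10, 0.24 for URA8, 0.20 for IMD2 and 0.007 for ADE16. The growth markers were also low on this array, with a median of 0.05 against 0.60 to 1.01 elsewhere, and their part in the result was not tested.

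By branch, the GMP genes moved least on this array, with a median of 0.95 there and 1.03 to 1.25 elsewhere. The IMP pathway had a median of 0.21 against 0.43 to 0.77, the pyrimidine genes 0.23 against 0.43 to 0.79, the PRPP genes 0.14 against 0.40 to 0.74, and salvage and uptake -0.24 against 0.13 to 0.34. The 5 GMP genes were not alike in this, since GUA1 and IMD4 were among the most lowered. Without the array recorded at 20 h, 34 members were higher and 4 lower in the mean. The shares of all genes are not given for that fit.

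**Figure D3:**
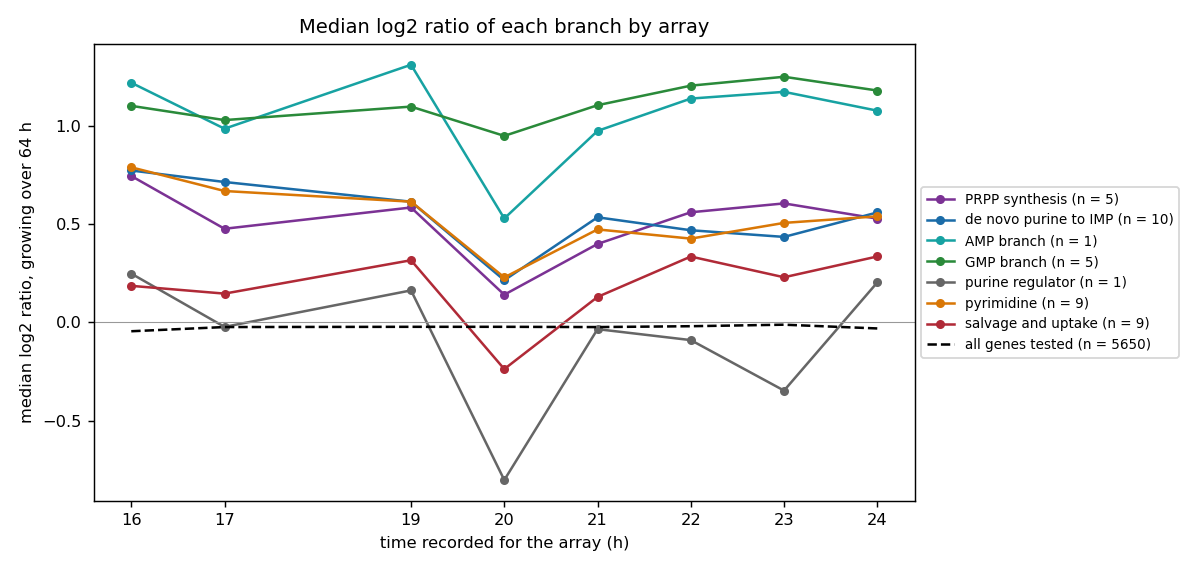
Median log2 ratio of each branch (y axis, growing over 64 h cells) against the time recorded for the array (x axis, h), with the number of genes in brackets. All genes tested stay near 0, where the normalization within each array places them. Every branch is lowest on the array recorded at 20 h, the GMP branch by the smallest step.

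Over time, no member passed with the arrays as recorded. Limma called 0 of 40 slopes (0% of all genes), and 2 members had an unadjusted p under 0.05, where 6.81% of all genes had. The 2 arrays in dispute include the one on which most members were lowest, so the recorded order places that array in the middle of the course.

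On the 6 undisputed arrays 7 members fell and 2 rose, where 3.17% of all genes fell and 5.2% rose. AAH1 fell most, by 0.11 ± 0.02 log2 units per h (SE, n = 6; limma adjusted p = 0.018). URA7 fell by 0.10 ± 0.02, ADE4 by 0.089 ± 0.020 and URA4 by 0.085 ± 0.019. The ratio of URA4 was 0.98 at 16 h, 0.78 at 17 h, 0.75 at 19 h, 0.72 at 21 h, 0.43 at 22 h and 0.26 at 23 h, and that of URA7 was 1.66, 1.70, 1.24, 1.42, 1.14 and 0.89 at these times. The other falling genes were ADE1, ADE8 and ADE6, all of the IMP pathway, with slopes of -0.076, -0.067 and -0.066.

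IMD2 and URA2 rose on these arrays. IMD2 rose by 0.13 ± 0.02 per h (adjusted p = 0.0091) and URA2 by 0.093 ± 0.023 (adjusted p = 0.042). IMD2 did not pass without the 16 h array, at 0.11 (adjusted p = 0.076), or without the 23 h array, at 0.11 (adjusted p = 0.097). The rise of URA2 was smaller without the 16 h array, at 0.051 (adjusted p = 0.25), with the scanner's ratios, at 0.029 (adjusted p = 0.50), and with median centring, at 0.081 (adjusted p = 0.092). On the 6 arrays 28 of the 40 slopes were below 0, beside 2716 of the 5650 genes tested. The median slope of the members was -0.03 per h, against 0.002 for all genes tested. The state markers moved over the same arrays: 10 of 10 growth markers had slopes below 0, with a median of -0.061 and 3 falling, and 8 of 9 markers of 64 h cells had slopes above 0, with a median of 0.078 and 3 rising. Their part in the members' slopes was not tested. The PRPP genes, ADE12, BAS1 and the remaining salvage genes had no member past the threshold.

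These calls rested on few arrays. Without the 16 h array 1 member, URA8, rose by 0.15 (adjusted p = 0.044) and 0 fell, without the 19 h array 1 rose and 3 fell, without the 22 h array 1 rose and 0 fell, and without the 23 h array 0 rose and 0 fell. The slope of AAH1 stayed between -0.12 and -0.083 in these 4 fits. Other slopes moved more: without the 16 h array that of URA2 went from 0.093 to 0.051 and that of URA8 from 0.082 to 0.15. Without the 17 h array 2 rose and 7 fell, and without the 21 h array 2 rose and 6 fell. The shares of all genes are not given for fits with 1 array left out or another dye correction. A loss of calls particular to the members can therefore not be told. With median centring 1 rose and 2 fell, and with the scanner's ratios 1 rose and 8 fell. With the slide as a block, 3 rose and 11 fell, where 11.9% and 9.1% of all genes did.

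After the files of 20 h and 24 h changed places, 14 members fell and 2 rose, where 8.58% of all genes fell and 10.5% rose. All 9 genes called on the 6 arrays were called again in the same direction, which is no independent support, since the 6 arrays keep their times in this fit. Falling beside them were PRS4, IMD4, GUA1, BAS1, URA1, URA6 and FUI1, with slopes from -0.097 for BAS1 to -0.057 for URA6. AAH1 fell by 0.17 ± 0.03 per h (adjusted p = 0.0085) and IMD2 rose by 0.11 ± 0.03 (adjusted p = 0.021). Without the 16 h array IMD2 did not pass, at 0.091 (adjusted p = 0.13). Without the array recorded at 20 h 8 members fell, and without the 16 h array 10 fell and 1, URA8, rose. Without the 23 h array 11 fell and 1, IMD2, rose. The shares of all genes are not given for these fits. With the slide as a block 20 fell and 4 rose, where 13.3% and 16.9% of all genes did. A limma fit of the authors' deposited table with its own columns gave 24 falling members and 3 rising ones, where 18.5% and 15.9% of its genes fell and rose.

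**Figure D4:**
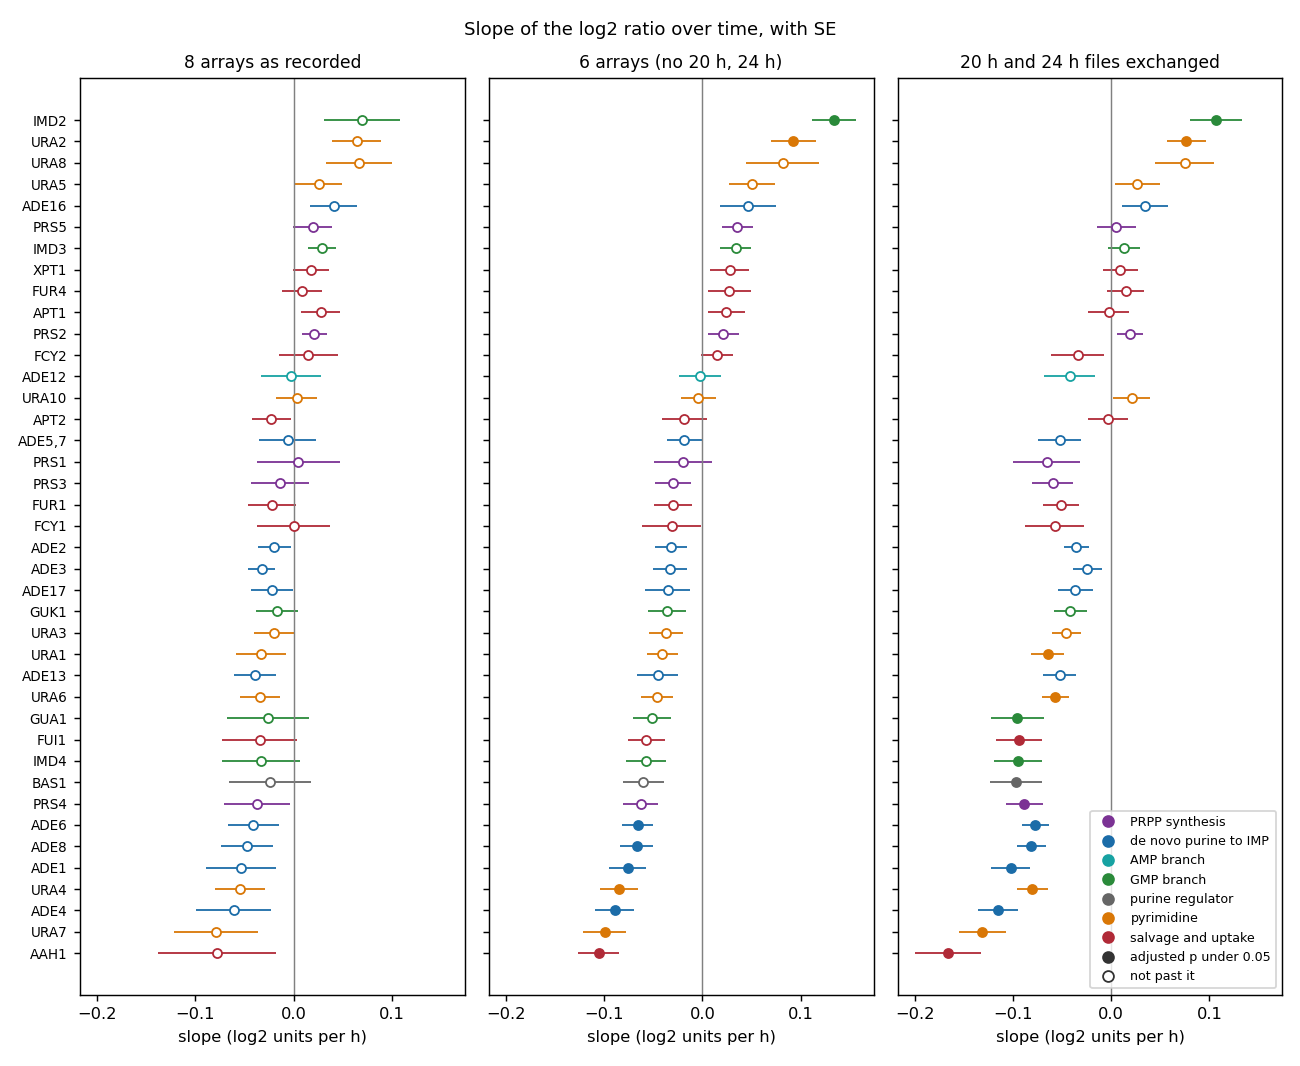
Slope of the log2 ratio over time (x axis, log2 units per h) for the 40 genes (rows) as recorded, on the 6 undisputed arrays and after the 20 h and 24 h files changed places. Bars are SE and filled points have an adjusted p under 0.05: 0 as recorded, 9 on the 6 arrays and 16 after the exchange.

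On the 6 undisputed arrays the ratio of IMD2 also gained on those of its paralogues over time. The slope of the difference between the genes of a pair was tested by an exact two-sided permutation of the times. P-values were adjusted over the 9 pairs. The test was added after the courses had been seen, so its p-values describe the pattern and are no independent support for it. On the 6 arrays IMD2 gained on IMD4 by 0.19 per h (exact p = 0.0042, adjusted p = 0.013), from a difference of -0.41 at 16 h to 1.41 at 23 h, and on IMD3 by 0.10 per h (same p). IMD3 gained on IMD4 by 0.091 and PRS2 on PRS4 by 0.084 per h, both with an adjusted p of 0.013. As recorded 0 of the 9 pairs passed, with a smallest adjusted p of 0.39 and 0 pairs under an unadjusted 0.05, and with the files exchanged 7 passed. Pairs that hold the same gene are not independent.

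Other genes of nucleotide metabolism, of linked pathways and of regulators lay on both sides of 0. Of 48 such genes, 29 were higher in growing cells, 14 were lower and 5 did not pass, with a median of 0.34, beside the 40.3% and 42.6% of all genes. Among 12 one-carbon and folate genes, which feed purine and thymidylate synthesis, 9 were higher and 1 lower. GCV2, of the glycine cleavage complex, was at 1.51 ± 0.05, while SHM2, a serine hydroxymethyltransferase, at 1.00, and GCV3, at -0.007, had Cy5 saturated on 5 and 8 arrays, so the order among these genes is not settled. LPD1, the lipoamide dehydrogenase subunit of the complex, which also serves the pyruvate and 2-oxoglutarate dehydrogenases, was lower at -1.09 ± 0.06, but saturation of its Cy3 spots on all 8 arrays, and of Cy5 on 1, leaves the size unsettled. Of 16 genes of salvage, breakdown and interconversion 8 were higher and 7 lower, near the shares of all genes, HPT1, the hypoxanthine-guanine phosphoribosyltransferase, being highest at 0.68 ± 0.06. PHM8, a nucleotide phosphatase, was lowest at -2.13 ± 0.06 with Cy5 well above background on 2 arrays, and YNK1, the nucleoside diphosphate kinase, stood at -1.98 ± 0.08.

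The remaining lists were short. The 4 deoxynucleotide genes were all higher, from CDC21, the thymidylate synthase, at 0.33 to DUT1, the dUTPase, at 1.05. Of 7 histidine genes, whose pathway draws on PRPP and shares Bas1, 5 were higher and 1 lower, from HIS5 at -0.17 to HIS1 at 1.32. Among 5 other transporter genes 2 were higher and 2 lower, from NRT1 at -0.61 to TPN1 at 0.36. Of 4 regulators 3 were lower, GCN4, the activator of amino acid and some purine genes, lowest at -0.97 ± 0.05, then PPR1, the activator of pyrimidine genes, at -0.21 and PHO2 at -0.20, and PUB1, an RNA-binding protein, was higher at 0.70. On the 6 arrays 2 of the 48 fell, MIS1 and SHM1, by 0.099 and by 0.079 per h, and 0 rose, beside 3.17% and 5.2% of all genes.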

How the data were processed

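The deposited scanner files held, per the file headers, spot intensity values made with Agilent Feature Extraction 10.5.1.1, the software named in the submitters' processing notes, on a design annotated on sacCer2. The deposited files also gave each spot's log10 ratio of red over green, made after the software's own background and dye corrections. Their other columns mark, per spot, signals well above background, saturated or outlying. The authors' value table, on a log2 scale from its values and centred on 0 for each gene over its 8 columns, had column medians between -0.0124 and 0.0147, and how it was normalized is not stated in the sources read.

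Median signals were corrected with normexp (offset 50) and normalized by loess within each array, control spots having weight 0, with limma 3.58.1 (R 4.3.3). Controls and spots marked as outliers were dropped before each probe's 2 spots were averaged. Symbols came from locus tags of the RefSeq table (assembly R64), which matched 5737 of 6225 systematic names. The table's build differs from that of the files, so no coordinates are given. For all 5650 genes tested, limma's lmFit and eBayes fitted a straight line on time less its mean. The intercept gave the mean log2 ratio against 0 and the line gave the slope. P-values were adjusted by the Benjamini-Hochberg method across these genes, with a threshold of 0.05. Differences between paired genes were tested by exact two-sided permutation over arrays. The fits were tested on simulated data.

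The members, branches, pairs and lists were chosen with earlier results of these data known. By the rule for named genes, values over the arrays are given for paired genes, for the highest and lowest member of each branch, and for the genes with the largest called slopes. Alternatives were other background and dye corrections, other probe filters, the slide as a block, the authors' table and single arrays left out.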

Additional observations from a re-analysis of the deposited data

Results flagged for a closer look

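For 7 of the 40 members, 1 array lay far from the other 7: the gap to the nearest value, divided by the whole range, exceeded Dixon's 95% critical value for 8 samples. Chance gives about 5% of groups such a value. The share of all genes tested that meet this rule is not given, so the flag cannot be read as particular to the members. The array recorded at 20 h was the lowest for 23.6% of all genes tested. In 6 of the 7 the array was the one recorded at 20 h. There the log2 ratio was 0.14 for PRS3, 0.22 for ADE5,7, 0.53 for ADE12, -0.057 for GUA1, 0.10 for URA1 and -0.45 for FCY2, each below the other arrays. The seventh was URA2 at 16 h, at -0.53, where the next lowest was -0.02.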

How the results depend on the processing

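No paired analysis was possible because the 8 arrays form 1 group with 1 array at each time. Of 37 called members, 35 kept their call in each of the 17 alternatives of the mean ratio other than slide 2 alone. FUI1 and FCY1 were the exceptions there. Leaving out 1 array gave 31 to 34 higher members and 4 lower. Slide 2 held 3 arrays, those recorded at 17, 20 and 21 h, and so the array on which most members were lowest. On slide 2 alone 15 members were higher and 4 lower, and FCY1 turned to -0.017. The shares of all genes called with 1 array left out or on slide 2 alone are not given. The slide 2 fit has fewer arrays, and the cause was not tested otherwise. The pairs that passed numbered 6 or 7 in each alternative, the single arrays left out included. Against 0 rising and 0 falling members as recorded, and 0 of each with any 1 array left out, the 6 arrays gave 2 rising and 7 falling and the exchanged files 2 rising and 14 falling. With the slide as a block these became 3 rising and 11 falling on the 6 arrays and 4 rising and 20 falling with files exchanged. The fit of the values deposited by the authors gave 3 rising and 24 falling. Leaving out 1 array gave 0 to 2 rising and 0 to 7 falling members on the 6 arrays, and 1 to 2 rising and 8 to 16 falling after the exchange. The scanner's ratios gave 1 rising in either fit, and median centring gave 1 rising in either fit and 2 falling on the 6 arrays. The alternatives of these added time fits were chosen after seeing the data. The number of arrays limits the precision.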
